A study of Homo sapiens with 9 samples.

Results

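LAN-1 is an established human neuroblastoma cell line that carries many copies of the oncogene MYCN. Expression was described here in LAN-1 cells that were never frozen, on the 3 arrays whose titles name the fresh condition, out of 9 arrays in the series. For each of these 3 biological replicates, cultured LAN-1 cells were spiked into tumor-free bone marrow, passed through a density gradient that keeps mononuclear cells, and recovered at low temperature with an antibody against the ganglioside GD2 and magnetic beads. The other 6 arrays hold LAN-1 cells that were frozen with the mononuclear cells and recovered after thawing, and they enter no comparison here. Each sample gave 100 ng of total RNA to 1 PrimeView array, which measures sets of short probes near the 3' ends of transcripts. Genes were described by level, with the probe set of highest mean over the 3 fresh arrays for each of 18132 genes. All 3 samples share the same line, the spiking and the enrichment, and no culture without marrow and no marrow without tumor cells was analysed here. The enriched fraction can hold marrow cells, so a signal is that of the mixture, in which fewer cells of a type and less RNA per cell cannot be told apart.

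Neuroblastoma arises from the neural crest cells that form sympathetic ganglia and the adrenal medulla. Cells of this lineage are set up by a circuit of transcription factors that includes HAND2, GATA3 and PHOX2A, make noradrenaline from tyrosine, and store it with chromogranins in dense-core granules. In many aggressive tumors a stretch of chromosome 2 around MYCN is amplified. GD2 is an acidic glycolipid that is displayed on most neuroblastoma cells and on few marrow cells, which is why it can serve to pull tumor cells out of marrow.

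Of the 18132 genes, 8594 (47.4%) lay above background in every fresh array, 8429 (46.5%) lay at background in every array and 1109 (6.12%) were mixed, above the limit in some arrays only. The background limit, 6.40 on the log2 scale, was the 95th percentile of 438 genes for olfactory receptors, taste receptors and keratin-associated proteins, families that serve smell, taste and hair and whose signals had a median of 4.06. A gene was called abundant at a mean of 9.87 or more, which holds 1814 genes (10% by construction), intermediate from 8.51, the median of the genes above background, and low below that. Signals are log2 values throughout, and 3 values in a row are those of replicates 1, 2 and 3. Probe sets differ in how well they bind, so the bands describe signal and no ratio between genes is given.

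**Figure D1:**
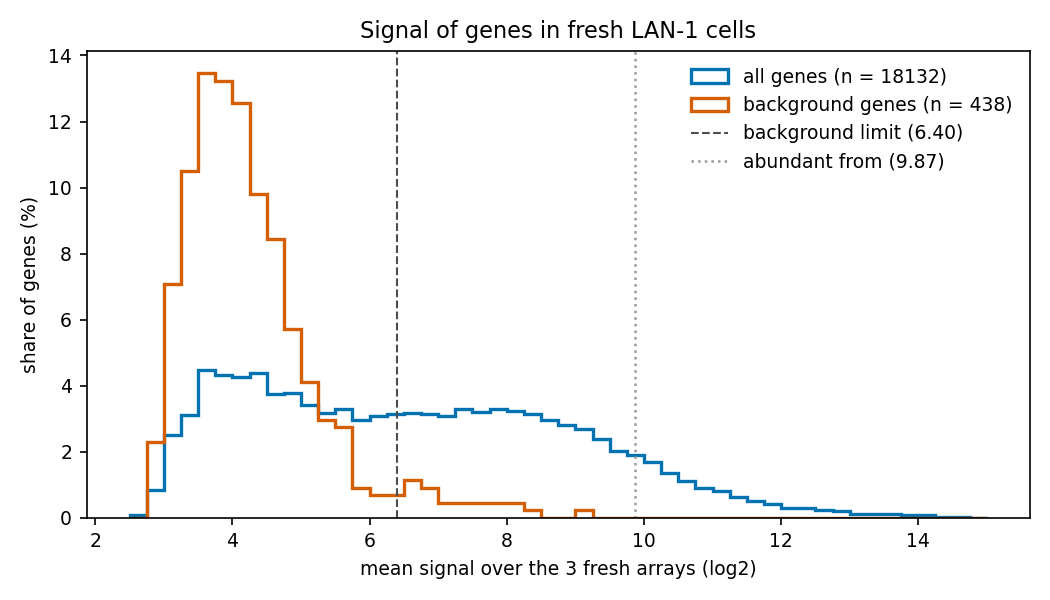
Share of genes (%) by mean log2 signal over the 3 fresh arrays, in steps of 0.25, for all 18132 genes and for the 438 background genes. The background genes pile up around their median of 4.06, with a tail past the dashed limit at 6.40, and the dotted line at 9.87 marks where abundant genes begin.

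The limit is not sharp. Olfactory receptors alone (333 genes) would put it at 5.55, and the 105 keratin-associated and taste receptor genes alone at 7.27. Control probe sets of random sequence on the array had mean signals of 2.74 with 3 G or C among their 25 bases, 5.33 with 20 and 9.49 with 25. Those with 21 G or C had 6.03, still below the limit, and those with 22 and 24 had 6.60 and 7.79, in the low band. A probe set very rich in G and C can therefore give a signal in the low band with no transcript to bind. Low calls are read here as calls that depend on the limit. Under all of 6 limits, from 5.33 to 7.85, 125 of 287 lineage genes and 7 of 179 genes of other marrow cells stayed above background. The share of all genes above the highest of these limits, 7.85, lay between the shares of these lists.

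The arrays also differed in how far labelled RNA reached toward the 5' ends. The 3' minus 5' difference of the control probe sets for GAPDH, a glycolytic enzyme, was 4.92, 3.56 and 1.56. That of ACTB, a cytoskeletal actin, was 5.28, 5.41 and 3.88, and that of 4 bacterial control RNAs averaged 3.84, 2.87 and 1.93. Replicate 3 had the smallest difference in each of these. Its part in the values below was not tested. Across all genes the arrays correlated at r = 0.991 for replicates 1 and 2, 0.977 for 1 and 3 and 0.992 for 2 and 3, where genes are not independent points.

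The signals of 3 of the 4 genes that mark the line were abundant. MYCN, the amplified oncogene, had 13.49, 13.63 and 13.46, and 3 of its 4 probe sets lay above background. HAND2, a basic helix-loop-helix factor of sympathetic neurons, had 12.69, 12.72 and 12.74. GATA3, a zinc finger factor of the same circuit, had 11.64, 11.89 and 11.86. These 3 genes varied little, with SDs of 0.09, 0.03 and 0.14 (n = 3). TH, tyrosine hydroxylase, which makes the rate-limiting step to dopamine and noradrenaline, stood apart from them at 7.61, 7.61 and 7.73. It was low, above the limit in every array but not above the 7.85 that the 99th percentile of the background genes would set. HAND2 rested on 1 of its 2 probe sets, the other having a mean of 5.94.

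Beyond the markers, 24 of 26 genes of the neuronal cytoskeleton and neuronal RNA-binding proteins and 19 of 22 noradrenergic transcription factors lay above background, against 47.4% of all genes. For 179 genes of other marrow cells the count was 23 (12.8%), and for 287 genes of the lineage, tumor and shared lists together it was 177 (61.7%). The lists were assembled by hand with earlier results of these data known, and their counts describe them without a test.

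**Figure D2:**
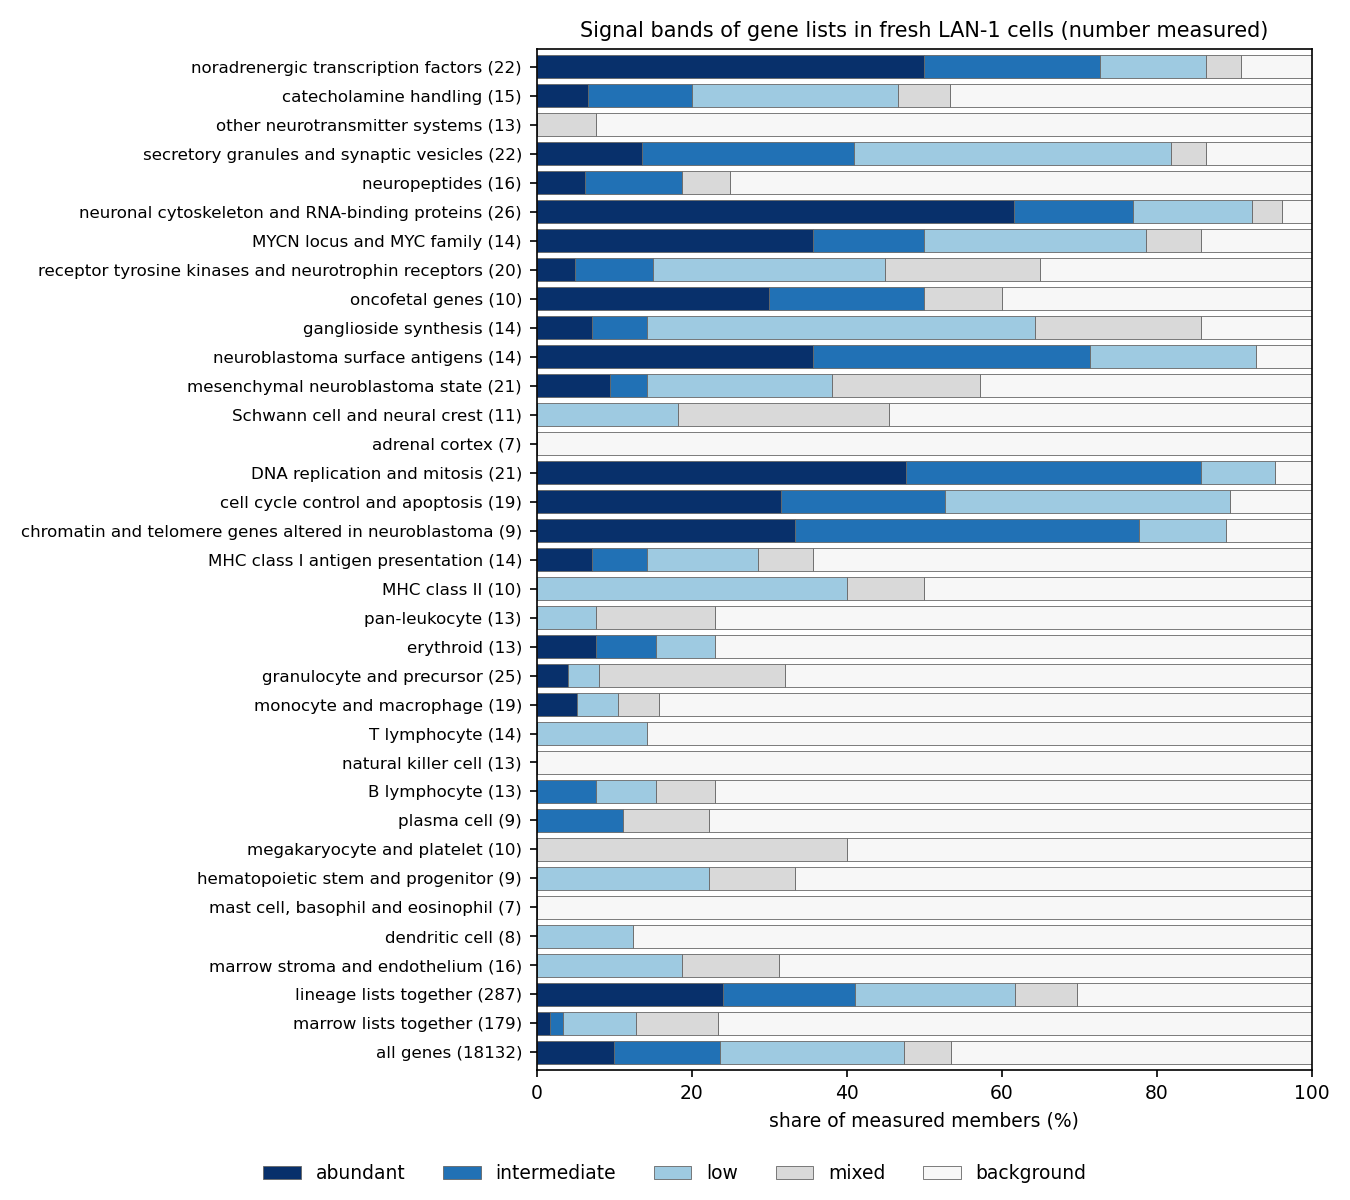
Share (%) of the measured members of 32 gene lists, of the lineage and marrow lists together and of all 18132 genes in the 5 signal bands, with the number measured in parentheses. Dark blue is abundant, mid blue intermediate, light blue low, grey mixed and white background, and the marrow lists, from MHC class II down, hold 76.5% of their 179 genes at background, and 5 of 10 in MHC class II.

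Start-site sequences are shown for 5 genes of abundant signal in the lineage and for 4 genes of granulocytes and platelets whose signal differed between arrays, chosen after their CpG content was seen to differ. Each line gives the 100 bases before the start of transcription, 5' to 3' on the gene's strand, from RefSeq on GRCh38.p14, with each CpG pair in capitals. The positions are chr2:15940450-15940549 (plus strand) for MYCN, chr2:15591768-15591867 (plus) for DDX1, chr4:173530230-173530329 (minus) for HAND2, chr10:8045233-8045332 (plus) for GATA3 and chr14:92923050-92923149 (plus) for CHGA. For the others they are chr1:153391189-153391288 (minus) for S100A8, chr1:153357754-153357853 (plus) for S100A9, chr1:153375622-153375721 (minus) for S100A12 and chr4:73988191-73988290 (minus) for PPBP.
MYCN: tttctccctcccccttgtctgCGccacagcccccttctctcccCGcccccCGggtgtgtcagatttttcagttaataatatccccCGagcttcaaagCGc
DDX1: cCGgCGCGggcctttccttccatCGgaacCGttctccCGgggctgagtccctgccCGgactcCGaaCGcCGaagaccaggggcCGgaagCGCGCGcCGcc
HAND2: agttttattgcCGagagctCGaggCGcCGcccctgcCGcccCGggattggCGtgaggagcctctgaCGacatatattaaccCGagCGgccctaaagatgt
GATA3: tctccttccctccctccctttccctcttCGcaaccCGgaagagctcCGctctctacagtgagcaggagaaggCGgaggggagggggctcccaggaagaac
CHGA: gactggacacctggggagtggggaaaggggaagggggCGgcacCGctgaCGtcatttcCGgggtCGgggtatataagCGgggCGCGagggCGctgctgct
S100A8: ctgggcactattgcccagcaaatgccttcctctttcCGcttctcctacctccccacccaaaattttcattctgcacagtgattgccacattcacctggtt
S100A9: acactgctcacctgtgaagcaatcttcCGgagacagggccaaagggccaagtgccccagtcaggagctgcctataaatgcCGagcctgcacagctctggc
S100A12: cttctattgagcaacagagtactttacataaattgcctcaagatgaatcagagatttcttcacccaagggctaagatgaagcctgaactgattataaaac
PPBP: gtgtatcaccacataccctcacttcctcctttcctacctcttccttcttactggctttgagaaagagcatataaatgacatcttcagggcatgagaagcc

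In the full window of 300 bases, 250 before and 50 after the start, DDX1 held 31 CpG pairs, CHGA 24, GATA3 16, HAND2 15 and MYCN 14. S100A9 held 5, S100A8 held 2, and S100A12 and PPBP 1 each. A RefSeq window was found for 14424 of the 18132 genes. The median number of CpG pairs was 23 over 218 lineage genes, as over all genes matched, and 4 over 124 marrow genes. Single lists departed from this, with a median of 3 for the adrenal cortex, 16 for noradrenergic transcription factors and 18 for hematopoietic stem and progenitor genes. By band it was 27 for abundant, 28 for intermediate, 27 for low, 25 for mixed and 11 for background genes. The step thus lay between genes at background and all others, and not between low and abundant genes. The letters TATAAA, on either strand, stood in 6.74% of windows of abundant genes and 14.1% of those at background, against 9.19% of all genes. CACGTG, the core sequence that MYC family proteins bind, stood in 12.4%, 6.21% and 8.82% in the same order. It was absent from the windows of MYCN and DDX1, which says only that these letters are not there. CCAAT stood in 36.4% of the windows of all genes, and among the lists most often in those of MHC class II (87.5% of 8 windows), DNA replication and mitosis (83.3% of 18) and ganglioside synthesis (71.4% of 7). Both strands were searched for each motif, none of the 3 contains another, CACGTG holds a CpG pair itself, and a match is a description and not a binding site.

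The transcription factors of sympathetic neurons were mostly above background, with 11 of 22 abundant, 5 intermediate and 3 low. Of these, 17 stayed above background under all 6 limits. SOX4 and SOX11, HMG-box factors of immature neurons, had 11.92, 11.55 and 11.13, and 10.78, 10.84 and 10.64. MEIS2, a homeodomain cofactor, had 10.89, 11.27 and 11.21, and SATB1, a chromatin organizer, 10.95, 11.06 and 10.68. PHOX2A, the homeodomain factor that acts on the promoters of noradrenaline enzymes, had 10.07, 10.16 and 10.13 and was among the steadiest genes of the list. ISL1, a LIM factor of sympathetic neurons, was intermediate at 9.38, 9.70 and 9.81, as was LMO3, a LIM-only protein, at 8.76, 9.23 and 9.30. LMO1, a related gene tied to inherited neuroblastoma risk, lay at background at 5.54, 5.31 and 4.99. TFAP2B, a factor of sympathetic differentiation, also lay at background, at 6.32, 6.35 and 5.09. Arrays disagreed for TBX2, a T-box factor, at 9.64, 10.03 and 11.22, and for INSM2, a zinc finger factor of neuroendocrine cells, at 10.51, 10.94 and 8.42.

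The enzymes and transporters of catecholamines were lower in the bands than the factors above them. Of 15 measured, 1 was abundant, 2 intermediate, 4 low, 1 mixed and 7 at background, which at 46.7% above the limit is close to the share of all genes. QDPR and PTS, which recycle and make the cofactor of TH, had 10.36, 10.23 and 9.82, and 9.38, 9.18 and 9.11. GCH1 and SPR, which also act in making that cofactor, were lower. GCH1 was mixed at 7.01, 6.49 and 5.39, and SPR lay at background at 6.18, 6.32 and 6.26. DDC, which turns DOPA into dopamine, had 9.07, 8.24 and 7.76. DBH, which turns dopamine into noradrenaline, had 8.97, 8.21 and 6.95, a spread of over 2 between arrays. SLC6A2, the noradrenaline transporter of the cell surface, was low at 8.0, 7.47 and 7.16, and MAOA, which degrades catecholamines, was intermediate at 9.76, 8.83 and 8.55. The vesicle transporters that load catecholamines were at background, SLC18A1 at 5.55, 4.86 and 4.68 and SLC18A2 at 5.25, 4.93 and 4.52. So was PNMT, which makes adrenaline, at 4.77, 4.52 and 4.44, and MAOB at 4.25, 4.17 and 4.14. Of 13 genes for acetylcholine, glutamate, GABA, serotonin and histamine, 12 lay at background. The other was CHAT, which makes acetylcholine, mixed at 6.50, 6.38 and 6.36.

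**Figure D3:**
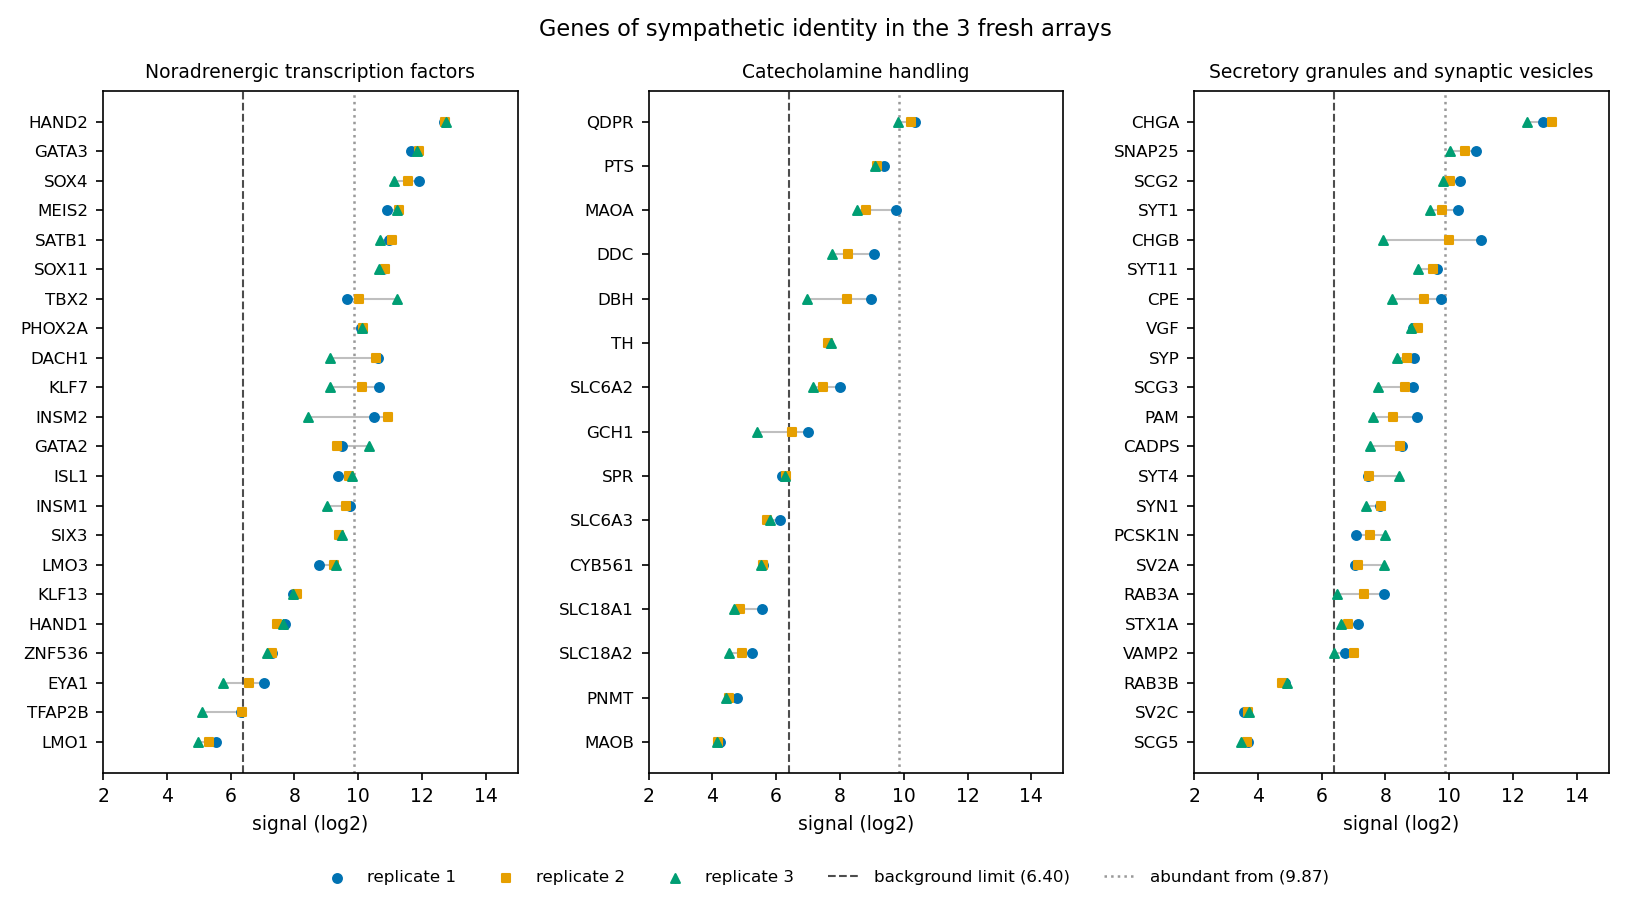
Log2 signal of all measured members of 3 lists, ordered by mean, with 1 point for each of the 3 fresh arrays and a grey line over their range. The dashed line is the background limit of 6.40 and the dotted line the start of the abundant band at 9.87. HAND2 and CHGA lead their lists, TH lies between the lines with its 3 points together, and the points of DBH and CHGB are spread widely.

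Genes of dense-core granules and synaptic vesicles were above background in 18 of 22 cases, led by CHGA, the chromogranin used as a serum marker of neuroendocrine tumors, at 12.93, 13.21 and 12.44. SNAP25, a SNARE protein of vesicle fusion, had 10.84, 10.51 and 10.02. SCG2, secretogranin II, had 10.35, 10.04 and 9.80. SYT1, the calcium sensor of release, was just below the abundant band at 10.27, 9.77 and 9.41. CHGB, the second chromogranin, reached the abundant band in replicates 1 and 2 (10.99 and 9.99) and only the low band in replicate 3 (7.91). SCG5, a chaperone of a prohormone convertase, lay at background at 3.70, 3.66 and 3.46.

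The neuropeptide list was carried by few genes. GAL, galanin, a peptide of sympathetic neurons that is known from neuroblastoma, had 13.27, 13.39 and 13.14, and both its probe sets lay above background. ADCYAP1, which encodes PACAP, had 8.77, 9.03 and 9.48, and NMU, neuromedin U, 9.56, 9.14 and 8.52. The other 13 of 16 were at background apart from UCN, urocortin, which was mixed at 7.15, 6.74 and 6.37. NPY, the peptide that sympathetic neurons release with noradrenaline, lay at 3.68, 3.70 and 3.33, on a single probe set. VIP, a peptide linked to secreting neuroblastic tumors, lay at 4.85, 4.32 and 4.33.

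Structural genes of neurons were the list with the largest share of abundant members, 16 of 26. STMN1, a microtubule-destabilizing protein of dividing and immature cells, had 13.22, 13.28 and 13.02. UCHL1, a neuronal ubiquitin hydrolase, averaged 12.93 ± 0.22 (SD, n = 3), and TUBB3, the neuronal beta-tubulin, had 12.32, 12.43 and 12.04. Among the RNA-binding Hu proteins, ELAVL3 had 11.95, 11.84 and 11.44, ELAVL4 10.89, 11.12 and 11.17, and ELAVL2 10.67, 10.77 and 10.47. PRPH, peripherin, the intermediate filament of peripheral neurons, had 10.76, 10.74 and 11.59. Its partners NEFL and NEFM, light and medium neurofilament, were intermediate at 9.67, 9.54 and 9.29 and low at 8.33, 8.68 and 8.45. NEFH, the heavy chain that comes with maturity, was at background at 2.79, 2.86 and 2.86. STMN2 moved with the arrays, at 12.94, 11.62 and 10.81, and VIM, vimentin, the other way, at 10.88, 11.36 and 12.51.

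Signal around MYCN on chromosome 2 was uneven along the gene order. DDX1, an RNA helicase whose gene is often co-amplified, had 14.43, 14.51 and 14.50 and ranked sixth of all genes, among ribosomal proteins. NBAS, a trafficking protein on the far side of DDX1, was abundant at 10.27, 10.08 and 9.92. The measured gene next to MYCN on the other side, CYRIA, a regulator of actin, was mixed at 6.88, 6.08 and 5.86. Beyond it RAD51AP2 was at background (2.99, 2.86 and 2.81), VSNL1 was mixed (6.45, 6.22 and 5.99) and SMC6, of DNA repair, was intermediate (9.12, 9.16 and 8.59). Copy number was not measured here, and probe sets of neighbours are not on 1 scale.

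MYC, the relative of MYCN, lay at background at 3.0, 3.14 and 3.22, and MYCL at 5.96, 6.16 and 5.61. MAX, the partner that both bind, was intermediate at 9.84, 9.99 and 9.69. Of the antagonists in the network, MXI1 was abundant at 11.21, 11.15 and 10.68, and MNT was low at 7.55, 7.71 and 7.57. ODC1, the polyamine enzyme that is a direct MYCN target, had 10.42, 11.39 and 11.87. It was lowest in replicate 1, and the part of labelling in this was not tested.

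Receptors were above background about as often as all genes (45.0% against 47.4%). GFRA2, the co-receptor for neurturin, was the single abundant receptor of 20, at 11.70, 12.07 and 12.21 with all 3 probe sets above background. RET, the kinase it works with, was low at 7.64, 7.51 and 7.56. ALK, the kinase most often mutated in neuroblastoma, was low at 8.07, 7.67 and 7.39, with both probe sets above background. IGF1R had 9.92, 9.74 and 8.85 and FGFR1 8.60, 8.99 and 9.02. NTRK2, the receptor for BDNF, lay at background at 4.81, 4.58 and 4.52, as did KIT at 3.69, 3.96 and 3.17 and MET at 4.94, 4.71 and 4.64. In all, 9 of 20 receptors were above background, 4 mixed and 7 at background.

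GD2 itself is not a gene product, so the genes that build it were read. GD2 is made from lactosylceramide by the sialyltransferases ST3GAL5 and ST8SIA1, which give GM3 and GD3, and by B4GALNT1, which adds the sugar that turns GD3 into GD2. Although the cells were recovered through GD2, signal of the last 2 enzymes was near the limit. B4GALNT1 had 7.09, 7.13 and 6.46, and ST8SIA1 had 6.78, 6.08 and 5.67, above the limit in replicate 1 alone. ST3GAL5 was low at 8.77, 8.22 and 8.17. UGCG and B4GALT5, which make the precursors shared by all such glycolipids, were intermediate at 8.67, 8.59 and 8.97 and abundant at 10.40, 10.82 and 11.06. In this list 9 of 14 genes (64.3%) were above background, against 47.4% of all genes. Under all limits 4 were so, a share close to that of all genes above the highest limit.

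Surface antigens of neuroblastoma were above background in 13 of 14 cases. CD24 had 12.74, 12.57 and 12.46, CDH2, N-cadherin, 11.96, 11.81 and 11.13, and NCAM1, the antigen CD56, a mean of 10.05 ± 0.06 (SD, n = 3). CD276, the checkpoint protein B7-H3 and a target of antibodies, had 9.05, 9.15 and 9.08. GPC2, a glypican also pursued as a target, was low at 8.51, 8.19 and 7.83. PROM1, the stem cell antigen CD133, lay at background at 3.79, 3.83 and 3.61. ALCAM, an adhesion molecule, ranged from 8.72 in replicate 1 to 6.44 in replicate 3.

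Neuroblastoma lines can also take a mesenchymal state, and genes of that state were above background in 8 of 21 cases (38.1%, against 47.4% of all genes). TWIST1, a factor that is also a MYCN partner in neuroblastoma, had 11.42, 10.95 and 10.50, and FN1, fibronectin, 10.98, 10.47 and 10.24. PRRX1, a core factor of the mesenchymal circuit, lay at background at 4.65, 4.31 and 4.10, as did AXL at 4.84 in every array. CD44 was low at 6.97, 6.71 and 6.44. SNAI2, which is Slug, was mixed at 5.77, 6.24 and 7.84. Of 11 Schwann cell and neural crest genes, SOX9 and SOX2 were above background and low. SOX10 was mixed at 6.70, 6.37 and 6.26, and S100B lay at background at 4.95, 4.88 and 4.84. All 7 genes of the adrenal cortex, the steroid-making tissue next to the medulla, lay at background.

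Oncofetal genes split. HMGA1, a chromatin protein, had 11.07, 11.17 and 10.84, and IGF2BP1, an RNA-binding protein on the commonly gained long arm of chromosome 17, 10.81, 10.93 and 11.11. LIN28B, which blocks let-7 maturation, was intermediate at 9.20, 8.98 and 8.35, whereas its paralog LIN28A lay at background at 3.06, 2.86 and 2.86. DLK1, a Notch-type ligand of chromaffin tissue, covered a wide range, at 9.07, 7.59 and 5.59.

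Genes of cell division were above background in 20 of 21 cases. TYMS, thymidylate synthase, had 12.74, 12.85 and 12.83, MCM7, a helicase subunit, 12.49, 12.86 and 12.95, and PCNA, the polymerase clamp, 11.99, 12.36 and 12.43. AURKA, the kinase that stabilizes MYCN, had 10.37, 10.71 and 10.58. The exception was MCM5, another subunit of the same helicase, at 5.20, 5.28 and 5.78, measured by a single probe set. MCM6 ranged from 6.99 in replicate 1 to 9.38 in replicate 3, and CENPF, a long kinetochore transcript, from 8.44 to 10.86.

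Of cell cycle regulators and apoptosis genes, 17 of 19 were above background. CDK4 and CDK6, kinases of G1, had 10.40, 10.78 and 10.83, and 11.33, 11.78 and 11.69. CCND1, their cyclin, was intermediate at 8.83, 9.49 and 10.57, and CCND2 lay at background at 4.29, 4.11 and 4.19. CDKN2A, which encodes p16 and ARF, was abundant at 11.09, 10.95 and 10.57, on 1 of its 3 probe sets, the next having a mean of 5.65. MCL1, an anti-apoptotic protein, was abundant at 11.93, 11.82 and 11.74, and its relative BCL2 was low at 6.99, 6.98 and 6.71. CASP8, a caspase often silenced in MYCN-amplified neuroblastoma, lay at background at 5.35, 4.71 and 4.82. Among 9 chromatin and telomere genes, SMARCA4 had 10.47, 10.74 and 11.26, and ATRX, lost in some older patients, 10.61, 10.11 and 9.89. TERT, the telomerase subunit, was at background at 5.85, 5.88 and 5.78.

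Antigen presentation was uneven. B2M, the light chain of MHC class I, had 12.72, 12.64 and 12.51 with all 8 probe sets above background. HLA-B was low at 6.84, 6.87 and 6.92, and HLA-C and HLA-E lay at background. The peptide transporter gene TAP1 (4.31, 3.94 and 4.11) and PSMB9 of the immunoproteasome (4.11, 4.11 and 4.0) lay at background too. Of 14 genes 4 were above and 9 at background. Sequences of HLA genes differ between people and from the probes, which was not examined.

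Genes of other marrow cells were mostly at background, with exceptions in single genes. Of 179 genes, 23 were above background in every array, 19 mixed and 137 (76.5%) at background. The count of marrow gene list members above background depended on the limit, from 7 at the 99th percentile of the background genes to 58 at the 90th, 56 with olfactory receptors alone and 63 with control probe sets of random sequence, a limit added after seeing the data. The median of the marrow genes was 5.15, 4.95 and 4.76. Medians fell in the same order in the background genes (4.25, 4.03 and 3.93) and in all genes (6.52, 6.46 and 6.34). PTPRC, the leukocyte antigen CD45, lay at 5.09, 3.73 and 3.37, below the limit in all arrays and with none of its 6 probe sets above background. CD53, CD48, CD52 and ITGB2, further surface proteins of leukocytes, had means of 3.63 to 3.98. CORO1A, an actin-binding protein of leukocytes, was the 1 of 13 pan-leukocyte genes above background, at 6.81, 7.14 and 7.41. Of the other members 2 were mixed and 10 at background. The mixed ones were ARHGDIB at 7.53, 7.06 and 6.16 and LCP1 at 6.42, 5.25 and 5.16. The genes above background under every limit were HBB, SLC25A37, S100A8, VCAN, PAX5, SDC1 and SPARC. Whether tumor cells or marrow cells gave these signals cannot be told apart in the mixture. PAX5 had 2 of 10 probe sets above background and nearly the same signal in every array. Whether its signal came from a transcript at all was not tested.

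Red cell genes were represented by globin. HBB, the beta chain of adult hemoglobin, had 10.76, 12.18 and 12.72 and all 3 of its probe sets were above background. It was lowest in replicate 1 and highest in replicate 3, with replicate 2 between them. Several other erythroid genes lay at background. ALAS2, which starts heme synthesis, had 6.18, 6.02 and 5.92, and was above background under 3 of 6 limits. AHSP, the chaperone of alpha-globin, had 4.64, 4.97 and 5.09, and CA1, carbonic anhydrase, 4.64, 4.43 and 4.65. GATA1, the erythroid master factor, lay just below the limit at 6.2, 6.13 and 6.03, and was likewise above background under 3 of 6 limits. SLC25A37, the mitochondrial iron carrier, was intermediate at 10.11, 9.78 and 9.44, and HBQ1, theta-globin, low at 9.36, 8.59 and 7.41. Both were highest in replicate 1 and lowest in replicate 3, opposite to HBB. Of 13 measured erythroid genes 10 lay at background, and the alpha- and gamma-globin genes were not analysed here. The summed linear signal of the list, 3913, 6298 and 7963, followed HBB, while the list's median log2 signal was 6.05, 5.95 and 5.73. The median of the background genes was 4.25, 4.03 and 3.93.

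Granulocyte genes were high in replicate 1. S100A8, a calcium-binding protein of neutrophils and monocytes, had 11.80, 9.29 and 9.20. S100A9, its partner in calprotectin, had 9.37, 7.44 and 8.01, and S100A12 8.92, 6.36 and 6.48. In these genes replicate 1 stood above both other arrays, which lay closer to each other than to it. The granule proteins behaved alike at lower signal, LTF, lactoferrin, at 6.84, 4.75 and 4.57, MMP9, gelatinase B, at 6.76, 4.67 and 4.76, and OLFM4, olfactomedin of secondary granules, at 6.52, 3.59 and 3.15. The primary granule genes of younger cells did not follow them. ELANE, neutrophil elastase, was at 4.97, 5.06 and 4.40, PRTN3 at 3.74, 3.79 and 3.79, and MPO, myeloperoxidase, was mixed at 6.58, 6.45 and 5.64. Over the 25 measured genes, 2 were above background, 6 mixed and 17 at background. The summed linear signal, of which S100A8 gave the largest single part, was 5811, 1595 and 1517. The median log2 signal was 5.23, 4.72 and 4.43, beside 4.25, 4.03 and 3.93 for the background genes.

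**Figure D4:**
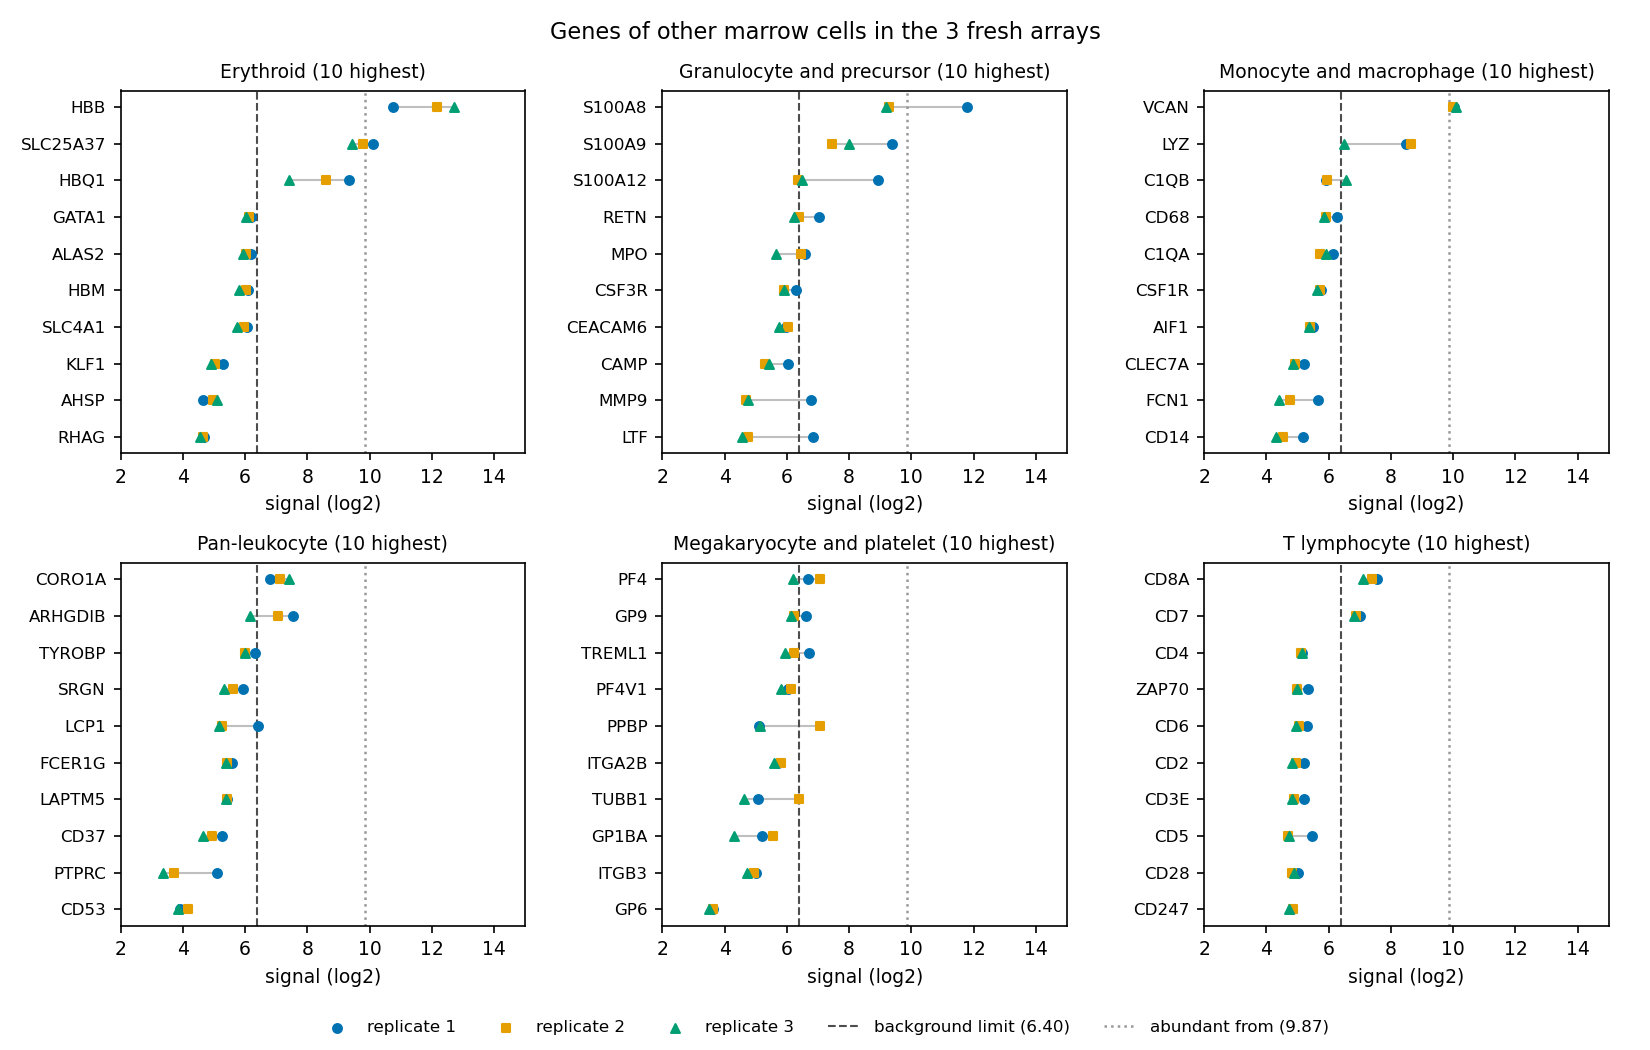
Log2 signal of the 10 highest members of 6 lists of marrow cells, with 1 point per fresh array and the limits of 6.40 and 9.87 as dashed and dotted lines. HBB, S100A8, VCAN and SLC25A37 lie in or reach the abundant band, and most other genes lie left of the dashed line. Replicate 1 stands to the right for S100A8, S100A9, S100A12, LTF and MMP9.

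Monocyte genes gave 2 above background of 19. LYZ, lysozyme, had 8.48, 8.65 and 6.49, high in replicates 1 and 2. VCAN, versican, was steady at 10.03, 9.99 and 10.11, a matrix proteoglycan that cells outside the blood make too. CD14, the defining surface receptor, lay at 5.17, 4.52 and 4.30, and CSF1R, the growth factor receptor of monocytes, at 5.77, 5.71 and 5.64. The share of LYZ signal that came from monocytes was not tested.

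Some platelet genes were highest in replicate 2. PPBP, a chemokine of platelet granules, had 5.10, 7.07 and 5.13, PF4, platelet factor 4, 6.67, 7.06 and 6.21, and TUBB1, the platelet tubulin, 5.09, 6.38 and 4.62. Replicate 2 was highest in each of these 3 genes, but not in GP9 (6.62, 6.24 and 6.15), a platelet adhesion receptor subunit, and 0 of 10 measured genes were above background in all arrays and 4 were mixed. ITGA2B, the platelet integrin CD41, was at background at 5.71, 5.80 and 5.58.

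Lymphocyte genes were near background. The T cell receptor genes CD3D (3.67, 3.58 and 3.55), CD3E (5.20, 4.88 and 4.82) and CD3G (4.35, 3.96 and 3.85) lay at background, while CD8A was low at 7.56, 7.39 and 7.12 and CD7 at 7.02, 6.87 and 6.81. Each of the latter rested on 1 probe set, the next having means of 4.54 and 4.88. All 13 natural killer genes lay at background, GNLY, granulysin, being the nearest to the limit at 6.18, 5.91 and 5.86. In B cells, PAX5, the B lineage factor, was intermediate at 8.99, 8.98 and 8.98, above background in 2 of its 10 probe sets. MS4A1, the antigen CD20, lay at 3.79, 4.27 and 3.93, and CD79B at 5.14, 5.28 and 4.87. CD79A was low at 6.54 in every array.

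The remaining marrow lists were similar. Of 9 plasma cell genes SDC1, syndecan, was above background at 8.68, 9.14 and 9.38, and JCHAIN, of secreted antibodies, lay at 6.14, 6.01 and 5.82. Of 9 stem and progenitor genes HLF (8.68, 8.17 and 7.65) and MEIS1 (7.14, 7.10 and 6.67) were low and CD34, the defining antigen, lay at background at 5.51, 5.31 and 5.32. BATF3 was the 1 dendritic cell gene of 8 above background, at 8.12, 8.26 and 7.70, and all 7 measured genes of mast cells, basophils and eosinophils lay at background. Of stroma and endothelium, LEPR (9.07, 8.55 and 7.26), SPARC (8.33, 8.02 and 8.06) and LUM (7.60, 7.97 and 8.45) were low, and COL1A1, COL3A1, CDH5 and PECAM1 lay at background. Among MHC class II genes, HLA-DRA was low at 6.80, 7.16 and 6.55, CD74, the invariant chain, low at 6.66, 6.82 and 6.61, and HLA-DMA lay at background at 4.52 in every array.

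Most of the 25 highest signals belonged to ribosomal proteins, beside ND4, a mitochondrially encoded subunit of complex I, at 14.68, 14.66 and 14.58. RPL32, a protein of the large ribosomal subunit, led at 14.76, 14.77 and 14.73. Apart from ribosomal proteins and other housekeeping genes, TPT1, a growth-related tubulin binder, had 14.44, 14.40 and 14.25, and NPM1, nucleophosmin, 14.05, 14.15 and 14.01. MIF, a cytokine that many tumor cells make, had 13.73, 13.69 and 13.66. MYCN was 15th and GAL 27th of these.

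The 3 arrays agreed for most genes above background, with a median SD of 0.20, but 705 of 8594 (8.20%) had a range over 1 and 33 a range over 2. In most of the 705 replicate 2 lay between the others, as it did in the 3' minus 5' difference of GAPDH and the bacterial RNAs but not of ACTB: 366 were highest in replicate 1 and lowest in replicate 3, and 314 were highest in replicate 3 and lowest in replicate 1. The part of labelling in this was not tested. The widest range was that of RGS5, a regulator of G protein signaling, at 10.37, 8.08 and 6.55. Its relative RGS4 had 11.36, 10.28 and 8.35. ENPP2, autotaxin, had 10.36, 8.99 and 7.66, and PCDH17, a protocadherin, 9.42, 8.59 and 6.92. PKM, pyruvate kinase, ran the other way at 7.52, 8.81 and 10.38, as did ID1, an inhibitor of differentiation factors, at 9.01, 9.57 and 12.08. The spread between the fresh arrays rested on replicates 1 and 3. Without replicate 3 the count of 705 became 76, without replicate 1 it became 140 and without replicate 2 it was 692, a range over fewer arrays being smaller by construction.

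**Figure D5:**
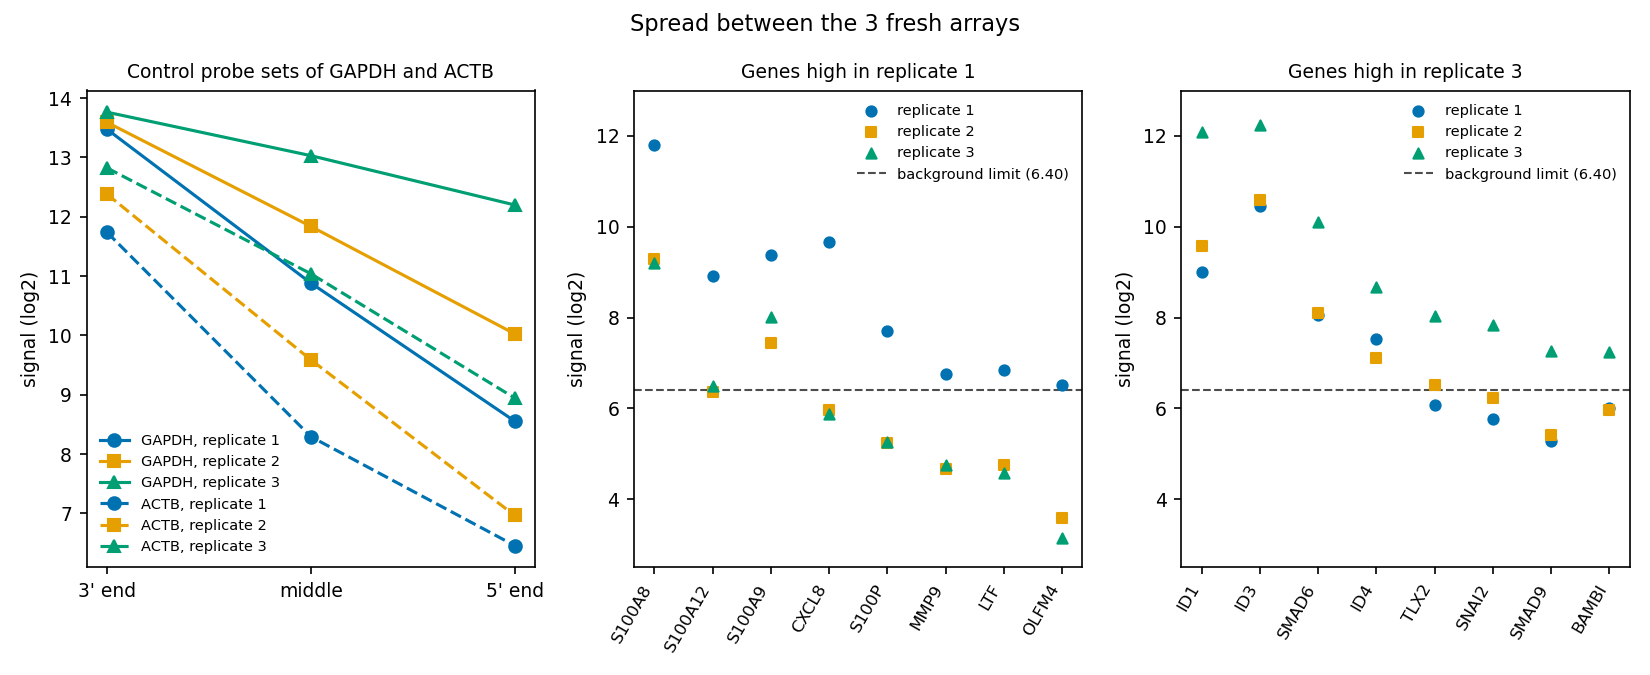
Left, log2 signal of the control probe sets for the 3' end, middle and 5' end of GAPDH (solid lines) and ACTB (dashed lines) in the 3 fresh arrays. Middle and right, log2 signal of 8 genes that were high in replicate 1 and 8 that were high in replicate 3, chosen after their values were seen. Replicate 3 keeps the most signal at the 5' ends, replicate 1 stands above for S100A8 to OLFM4 and replicate 3 above for ID1 to BAMBI.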

How the data were processed

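RNA of GD2-enriched LAN-1 cells was measured on 9 PrimeView arrays, of which the 3 fresh ones were described. The authors deposited log2 signals per probe set that they had computed with RMA, which corrects background, normalizes arrays to 1 distribution and summarizes probes. These log2 values were used as deposited. The version of RMA is not given in the sources used here. Of 49395 probe sets, 102 controls, 1832 with several symbols and 2473 with none were left out. The remaining 44988 gave 18132 genes, 11734 with more than 1 probe set. The array annotation named them, and 44961 of the probe sets had a gene identifier listed in RefSeq, with 0 symbols changed.

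For each gene the probe set with the highest mean over the fresh arrays was taken, a choice that favors high values. For 7604 genes the next probe set had a mean at background, among them CDKN2A, PCNA, CHGB, SNAP25 and LIN28B. Of 506 listed genes 465 were measured. No groups were compared, so no test was run. The number of arrays, 3, limits the precision. Members, lists and rules were chosen with earlier results of these data known. Named genes were the 25 highest, the 30 highest without housekeeping families, the 10 with the widest range above background and list members. For each list up to about 6 members with the highest mean, and defining ones at background, were given in every array, and others chosen after their values were seen were those set beside them. The procedure was run on simulated data in which expressed and silent genes lay far apart, so calls near the limit were not tested by it. Alternatives covered the probe set, the limit, the call rule, the scale and leaving out each array. Python 3.11.15 with numpy 2.4.6 and pandas 2.3.3 was used.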

Additional observations from a re-analysis of the deposited data

How the results depend on the processing

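The number of genes above background was 8594 and became 5195 with the limit at the 99th percentile of the background genes. The number of marrow gene list members above background, 23, depended most on the limit. It was 7 at the 99th percentile, 58 at the 90th, 56 with olfactory receptors alone, 12 with keratin-associated and taste receptor genes alone, 15 with the mean of all probe sets and 13 without genes whose next probe set was at background. An alternative chosen after seeing the data, a limit from control probe sets of random sequence, gave 63. The number of lineage gene list members above background, 177, was 125 to 215 over the same alternatives. Abundant genes among the list members numbered 72, and became 47 without genes whose next probe set was at background and 45 with the 95th percentile of all genes as the start of that band. For the spread between the fresh arrays, 705 genes with a range over 1 became 1550 when each gene took its most variable probe set, 329 with the limit at the 99th percentile and 461 with keratin-associated and taste receptor genes alone. Leaving out 1 array gave 76 to 692. Of 518 named genes, 78.4% to 98.6% kept their state over the alternatives that kept all of them. Depth has no meaning for arrays, and signals near the limit of 6.40 cannot be told from background. No paired analysis was possible because no conditions were compared.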

Other observations

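Some genes were high in a single fresh array. With a gap over 1 to both others and the others within 0.5 of each other, 33 genes were high in replicate 1 alone, 2 in replicate 2 and 43 in replicate 3. The rule was chosen after seeing the data. The 33 included CXCL8, a chemokine that draws neutrophils, at 9.66, 5.96 and 5.88, S100P, a calcium-binding protein, and VNN2, a surface protein of neutrophils. Of the 33, 5 were members of the granulocyte list, which holds 25 of the 18132 genes. The 33 also included EGR1 and NFKBIZ, genes induced early after a stimulus. In replicate 2 they were PPBP and VCAM1. None of the 43 in replicate 3 was in a marrow list. These lists hold only 179 of the 18132 genes, so their absence from 43 genes says little.

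The 43 included genes that bone morphogenetic proteins induce. SMAD6, an inhibitor of that pathway, had 8.06, 8.10 and 10.10, ID3 10.46, 10.58 and 12.24, and SMAD9 5.29, 5.42 and 7.25. Of 23 measured genes of the pathway, listed after this was seen and holding these genes, 8 were highest in replicate 3 by over 1. Among the 8 was SMAD7, which lay at background at 4.74, 4.61 and 6.10. Of the 16 not at background, 10 were highest in replicate 3, against 29.7% of all genes not at background. The list was drawn up from these values, so its counts support nothing further. The ligand gene BMP7 was steady at 9.16, 9.25 and 9.10. The 5' control probe sets of GAPDH and ACTB were also brightest in replicate 3, and the part of labelling in these values was not tested.

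Families grouped by symbol after the values were seen gave further contrasts. All 35 measured subunits of respiratory complex I, 74 of 75 mitochondrial ribosomal proteins and 66 of 69 cytosolic ribosomal proteins were above background, against 47.4% of all genes and 236 of 486 zinc finger genes (48.6%), but 0 of 37 interleukins, 0 of 16 GABA-A receptor subunits and 0 of 9 voltage-gated sodium channel alpha subunits. Among 14 nicotinic receptor subunits, CHRNA3, the subunit of autonomic ganglia, was abundant at 11.24, 11.53 and 11.28, and 11 lay at background. Of 27 HOX genes 3 were above background, led by HOXD8 at 9.08, 8.39 and 7.60. Of 43 collagens 7 were, led by COL4A2 at 10.08, 10.71 and 10.58 and COL6A1 at 10.67, 10.17 and 10.03.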
